A study of Mus musculus with 3 samples.

Results

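The genes described here are the 10 mouse genes chosen for MHC class I antigen presentation and peptide loading: B2m, H2-K1, H2-D1, H2-T23, Tap1, Tap2, Tapbp, Psmb8, Psmb9 and Nlrc5. They were listed by name for their function, out of 32285 genes in each matrix, and all 10 were found. Cells digested from arteries of wild-type mice had been profiled in droplets with a 3' single-cell RNA kit, and transcripts were counted as unique molecular identifiers (UMIs), 1 for each molecule read. The 3 libraries, 1 per group, came from mice given sunitinib plus Yoda1, mice given sunitinib, and mice given vehicle. Sunitinib is an inhibitor of receptor tyrosine kinases, and Yoda1 is an agonist of the stretch-opened cation channel PIEZO1. The first of these libraries is titled with Yoda1 alone and was read as the combined treatment from the series design, and the second is titled TKI. All 3 are labelled 3 weeks and vascular tissue; the labels give no age, sex, strain, dose or number of animals. Since each group is 1 library and cells are not replicates, no difference below was tested, and the 95% intervals given cover counting error alone.

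MHC class I molecules stand on the surface of nearly all nucleated cells and show peptides from inside the cell to CD8 T cells. Proteasomes cut the peptides, the TAP transporter carries them into the endoplasmic reticulum, and tapasin helps to load them onto a heavy chain paired with beta-2 microglobulin. Interferons raise the whole set, with IRF1 and NLRC5 among its activators, and endothelium meets circulating lymphocytes directly. The products are beta-2 microglobulin (B2m), the classical heavy chains K (H2-K1) and D (H2-D1), the non-classical heavy chain Qa-1 (H2-T23), both subunits of the transporter (Tap1 and Tap2), tapasin (Tapbp), the inducible proteasome subunits LMP7 (Psmb8) and LMP2 (Psmb9), and the class I transactivator (Nlrc5).

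Of the 10 genes, 8 lie on chromosome 17 (GRCm38, the assembly behind mm10, GENCODE vM21), where Psmb9, Tap1, Psmb8 and Tap2 follow each other within chr17:34181987-34216321. H2-K1 lies at chr17:33996017-34000347 on the minus strand, H2-D1 at chr17:35262730-35267499 on the plus strand, H2-T23 at chr17:36029773-36032855 on the minus strand and Tapbp at chr17:33915899-33929292 on the plus strand. B2m lies at chr2:122147686-122153083 and Nlrc5 at chr8:94434356-94527272, both on the plus strand. Tap1 and Psmb9 overlap at their starts on opposite strands, and the sources used here do not say whether counting used strand. Of the stretches of 50 bases in the last 500 bases of the annotated transcripts, 38.1% in H2-T23, 9.60% in H2-K1 and 8.92% in H2-D1 also occur in other genes, so part of their reads could be shared with related sequences.

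RefSeq promoter windows (GRCm38.p6, 250 bases before to 50 bases after the annotated start) were at hand for 8 of the 10 genes. Those of H2-K1, H2-D1 and B2m are shown because both classical heavy chains had near-equal ratios in endothelium in the comparisons of treatments below, and B2m encodes the chain they share. H2-K1 is at chr17:34000284-34000583 (minus strand, 1 of 2 windows for this gene), H2-D1 at chr17:35262844-35263143 (plus strand) and B2m at chr2:122147437-122147736 (plus strand). Capitals mark matches, on either strand, to a shorter interferon-response motif (GAANNGAAA), a longer one (GAAA, any 2 bases, GAAA) and an NF-kappaB-type motif (GGGA, any 4 bases, CC).
H2-K1: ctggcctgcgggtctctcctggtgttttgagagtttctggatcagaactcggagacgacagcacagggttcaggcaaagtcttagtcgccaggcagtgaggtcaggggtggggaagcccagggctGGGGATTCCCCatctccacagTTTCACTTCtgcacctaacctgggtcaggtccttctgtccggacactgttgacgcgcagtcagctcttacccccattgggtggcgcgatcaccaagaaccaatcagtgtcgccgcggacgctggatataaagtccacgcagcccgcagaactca
H2-D1: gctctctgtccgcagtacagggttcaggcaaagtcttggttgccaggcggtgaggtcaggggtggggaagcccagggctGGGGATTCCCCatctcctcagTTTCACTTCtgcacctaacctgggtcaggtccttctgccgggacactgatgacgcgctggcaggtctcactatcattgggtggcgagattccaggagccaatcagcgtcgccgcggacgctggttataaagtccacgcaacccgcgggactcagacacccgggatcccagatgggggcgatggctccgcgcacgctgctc
B2m: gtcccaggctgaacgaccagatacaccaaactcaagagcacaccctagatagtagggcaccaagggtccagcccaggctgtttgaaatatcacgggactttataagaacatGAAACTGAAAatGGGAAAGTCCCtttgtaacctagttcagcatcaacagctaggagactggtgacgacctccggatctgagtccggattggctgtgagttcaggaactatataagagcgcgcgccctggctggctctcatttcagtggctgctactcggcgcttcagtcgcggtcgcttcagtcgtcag
Both heavy-chain windows hold the same 2 capitalised runs, and in B2m the interferon-response match lies directly beside the NF-kappaB-type match. In H2-K1 the interferon-response match starts 104 bases before the annotated start, in H2-D1 150 bases and in B2m 139 bases. H2-T23 also held the longer interferon-response motif, 124 bases before its start. Neither interferon-response motif lay in the windows of Tap1, Tapbp, Psmb8 or Psmb9, which says only that these letters are not in these windows. GAANNGAAA stood in 2 of the 8 genes and in 7.52% of 32851 promoter windows, the longer motif in 2 genes and 3.44% of windows, and the NF-kappaB-type motif in 3 genes and 20.7% of windows. In these 3 genes each NF-kappaB-type run is read on both strands, as overlapping matches.

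Cells were put into classes by marker genes, none of them among the 10. Smooth muscle numbered 65 cells in the sunitinib plus Yoda1 library, 3796 in sunitinib and 3595 in vehicle, and endothelium numbered 366, 184 and 151 cells in the same order. Fibroblasts (199 cells), B cells (1097) and T cells (622) were described in the sunitinib plus Yoda1 library, since the other libraries held 13 or fewer cells of each. Total UMIs were 28364203 in sunitinib plus Yoda1, 66769480 in sunitinib and 73901343 in vehicle, and 3 to 8 barcodes were shared by a pair of libraries. The class names were checked on markers that the rule had not used. Kdr, Tek, Tie1, Cldn5 and Emcn together reached 1116 to 2815 CPM (UMIs scaled to the same total in each sum) in endothelium and 0.40 to 1.01 CPM in smooth muscle. Fibroblast markers (Pi16, Clec3b, Serpinf1, Col15a1 and Mfap5) were less exclusive. They summed to 460 and 549 CPM in sunitinib and vehicle smooth muscle and to 506 and 460 CPM in their endothelium. In sunitinib plus Yoda1 they summed to 263 CPM in smooth muscle, 104 CPM in endothelium and 4592 CPM in fibroblasts. UMIs of the endothelial rule genes were found in 63.5% of B cells and 59.5% of T cells. The sunitinib plus Yoda1 library stood apart from the other libraries. It was counted with Cell Ranger 7.1.0 and the others with 6.0.0, its endothelium carried 42257 CPM of haemoglobin transcripts against 3.20 CPM in sunitinib and 8.43 CPM in vehicle, and 302 of its 366 endothelial cells held 2 or more of the 5 capillary genes Gpihbp1, Cd36, Rgcc, Car4 and Aqp1, against 2 of 184 cells in sunitinib and 4 of 151 in vehicle. Treatment, software version and the make-up of the sampled cells cannot be told apart in any value of that library.

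All 10 genes were higher in endothelium than in smooth muscle in each of the 3 libraries, by 3.11-fold to 330-fold. Every one of them passed 1.5-fold, a size passed in that direction by 36.9% of all genes in sunitinib plus Yoda1, 29.9% in sunitinib and 28.6% in vehicle, counting genes with at least 20 UMIs. The median log2 ratio of the 10 was 3.09 in sunitinib plus Yoda1, 4.54 in sunitinib and 4.88 in vehicle, beside 0.25, 0.07 and 0.02 over all genes. Leakage of free RNA between droplets, which would pull the classes together, was estimated from foreign markers at 0.73% to 12.7% of the UMIs of these sums.

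Transcripts of the class I chains were abundant in endothelium. H2-K1, a classical heavy chain, stood at 840 CPM in sunitinib plus Yoda1 endothelium, 1978 CPM in sunitinib endothelium and 2699 CPM in vehicle endothelium, and at 106, 88.4 and 84.0 CPM in the smooth muscle of these libraries. That is 7.94-fold (95% 6.53 to 9.76), 22.4-fold (21.5 to 23.3) and 32.1-fold (30.9 to 33.4) higher in endothelium. H2-D1, the other classical heavy chain, stood at 1130, 2613 and 3287 CPM in endothelium and at 129, 181 and 161 CPM in smooth muscle, with sunitinib plus Yoda1 first and vehicle last. The lowest endothelial value of either gene thus lay far above its highest smooth muscle value. B2m, the shared light chain, had the narrowest contrast of these 3 genes, with 1004, 1440 and 2387 CPM in endothelium and 225, 281 and 283 CPM in smooth muscle. Its ratio was 4.47-fold in sunitinib plus Yoda1, 5.12-fold in sunitinib and 8.42-fold in vehicle. H2-T23, whose product Qa-1 is read by receptors on natural killer cells, stood at 180, 148 and 228 CPM in endothelium and at 14.1, 6.12 and 5.05 CPM in smooth muscle, so in vehicle it was 45.2-fold higher in endothelium (38.9 to 52.4).

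The peptide transport and loading genes were also higher in endothelium, and Tap2 and Tapbp by less than the heavy chains in each library. Tap1 was at 42.0, 52.3 and 63.9 CPM in the endothelium of sunitinib plus Yoda1, sunitinib and vehicle, and at 5.04, 1.94 and 1.64 CPM in smooth muscle. Its partner Tap2 was at 109, 75.7 and 98.8 CPM in endothelium and at 18.1, 15.3 and 12.3 CPM in smooth muscle. In vehicle the endothelial excess was 38.9-fold for Tap1 (29.6 to 51.2) and 8.04-fold for Tap2 (6.76 to 9.51), so the partners in 1 transporter had unequal contrasts. Tapbp, the bridge between transporter and heavy chain, was at 166, 201 and 260 CPM in endothelium and at 53.4, 36.7 and 35.2 CPM in smooth muscle, and at 3.11-fold in sunitinib plus Yoda1 it had the smallest contrast of the 10 in that library.

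The inducible proteasome genes had the widest contrast. Psmb8, whose product replaces the constitutive subunit Psmb5 in the immunoproteasome, was at 212 CPM in sunitinib plus Yoda1 endothelium, 249 CPM in sunitinib endothelium and 320 CPM in vehicle endothelium. In smooth muscle it gave 5 UMIs in sunitinib plus Yoda1 (5.04 CPM), 47 UMIs in 3796 cells in sunitinib (0.75 CPM) and 79 UMIs in 3595 cells in vehicle (1.15 CPM). The endothelial excess was 42.2-fold (17.9 to 130), 330-fold (244 to 455) and 279-fold (220 to 358). Psmb9, which replaces Psmb6, was at 94.8, 117 and 154 CPM in endothelium and at 6.04, 0.90 and 0.74 CPM in smooth muscle, 15.7-fold, 131-fold and 208-fold apart. With the estimated free RNA taken off, smooth muscle Psmb8 stood at 3.02 CPM in sunitinib plus Yoda1, 0.044 CPM in sunitinib and 0 CPM in vehicle. Psmb9 stood at 5.31, 0.55 and 0.17 CPM after the same step. In vehicle the estimate, 12.7%, came from the endothelial rule genes, at 28.0 CPM in smooth muscle and 8051 CPM in endothelium. The other endothelial markers stood at 0.44 and 1116 CPM there. The estimate may thus be too high, and whether the few Psmb8 UMIs of vehicle smooth muscle were stray was not tested.

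The constitutive counterparts Psmb5 and Psmb6 ran the other way. Psmb5 was at 87.3, 131 and 110 CPM in the endothelium of sunitinib plus Yoda1, sunitinib and vehicle, and at 166, 222 and 198 CPM in their smooth muscle. Psmb6 was at 112, 168 and 135 CPM in endothelium, and at 207, 285 and 270 CPM in smooth muscle. The log2 ratio of endothelium over smooth muscle in vehicle was -0.85 for Psmb5 (-1.06 to -0.64), and for Psmb6 it lay between -1.20 and -0.81. Psmb10, the third inducible catalytic subunit, did go with the set, at 4.25 on the log2 scale in vehicle, as did the proteasome activator genes Psme1 (2.15) and Psme2 (1.17). Of 14 core proteasome genes, 3 were at least 1.5-fold lower in vehicle endothelium than in vehicle smooth muscle, close to the share of all genes (22.5%), and 0 were at least 1.5-fold higher, with a median of -0.14. Of the interferon-induced genes 12 of 13 were at least 1.5-fold higher in vehicle endothelium than in vehicle smooth muscle, and of the other class I heavy chains 6 of 6. General chaperones of the endoplasmic reticulum differed by less than the 10 genes did: in vehicle Calr was at 0.29 and Canx at 0.71, while Pdia3 was at 0.87 and the peptide trimmer Erap1 at 2.02.

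**Figure D1:**
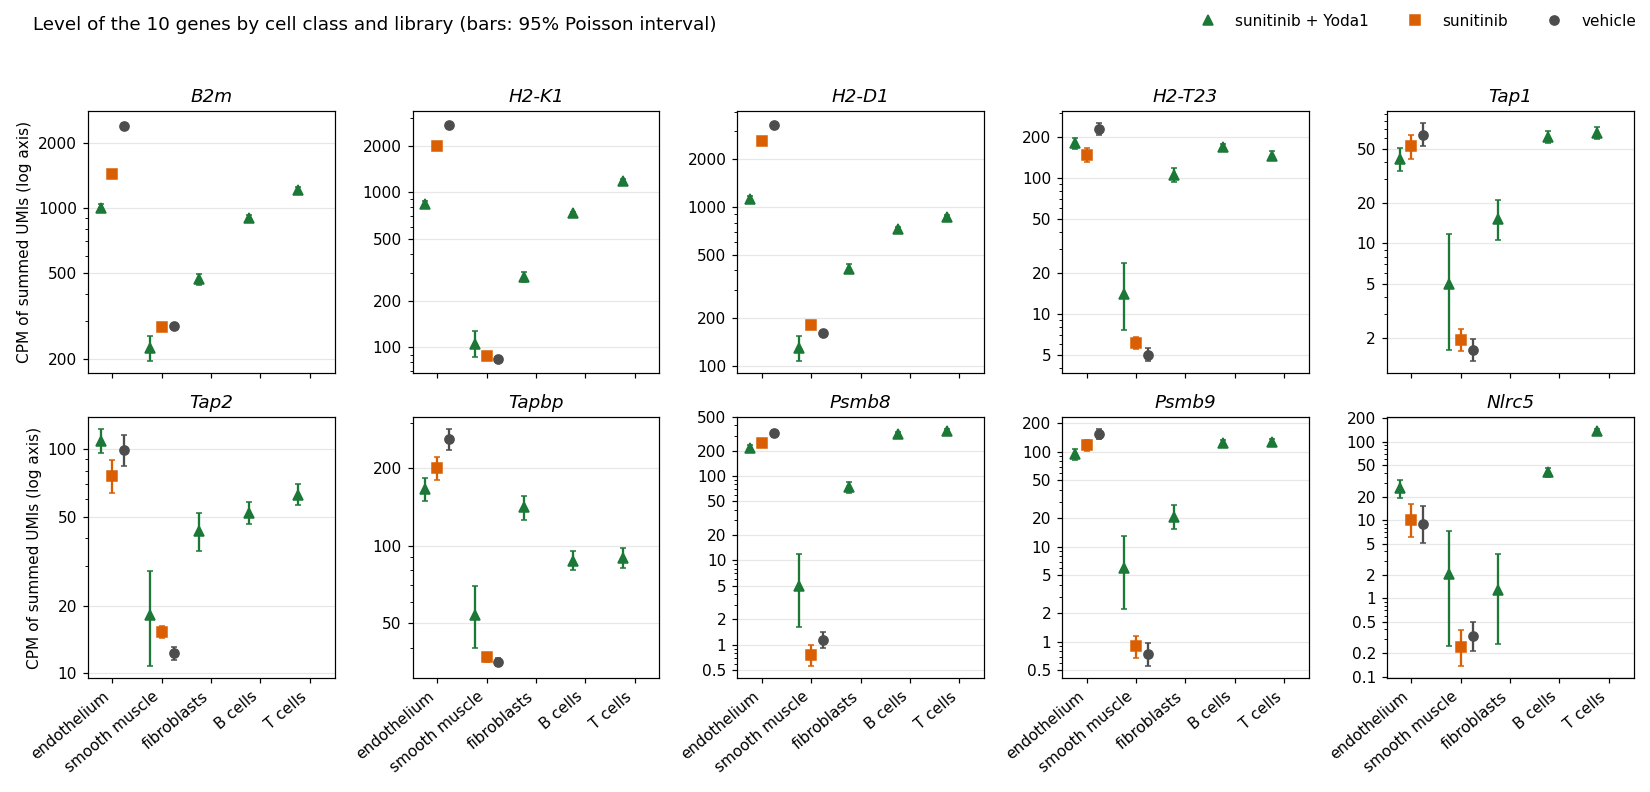
Level of each of the 10 genes (CPM of summed UMIs, log axis) by cell class, with triangles for sunitinib plus Yoda1, squares for sunitinib and circles for vehicle, and bars for the 95% Poisson interval. In every panel the endothelial points lie above the smooth muscle points, most widely for Psmb8, where smooth muscle was at 0.75 to 5.04 CPM and endothelium at 212 to 320 CPM.

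**Figure D2:**
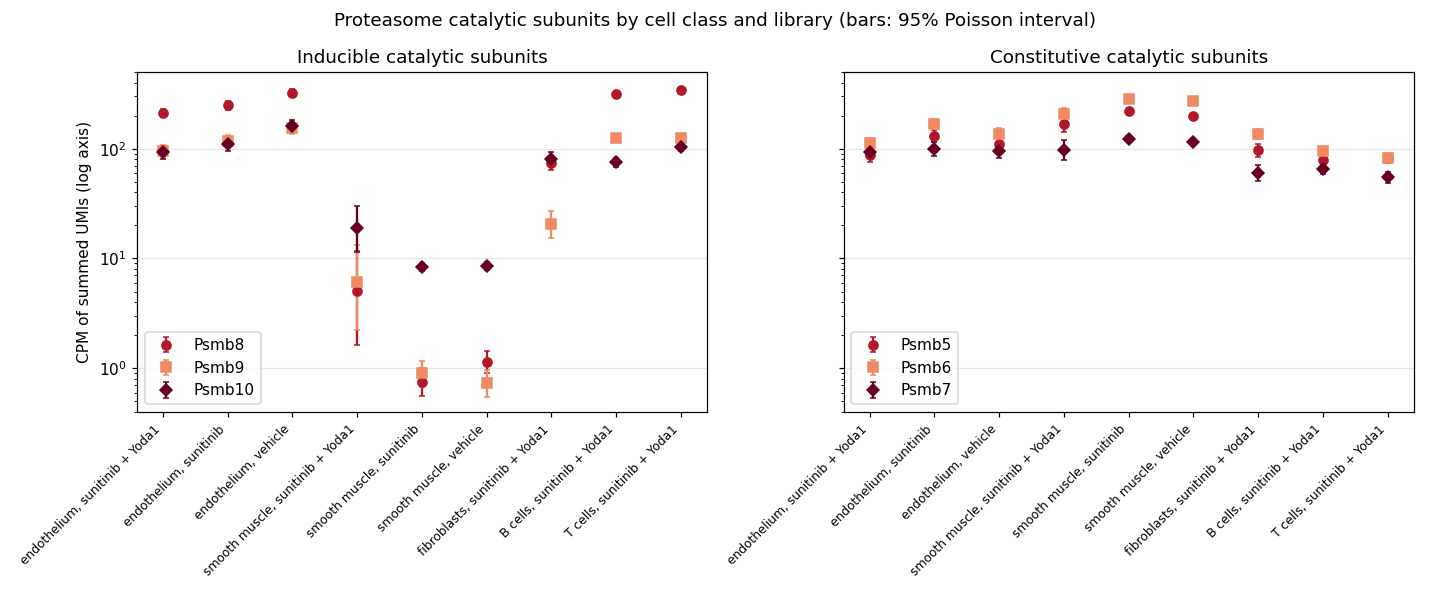
CPM (log axis) of the inducible (left) and constitutive (right) catalytic proteasome subunits in the 9 sums of class and library that held 50 cells or more, with 95% Poisson intervals. The inducible subunits lie far lower in smooth muscle than in the other classes, while the constitutive subunits are at their highest there.

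Lymphocytes and fibroblasts of the sunitinib plus Yoda1 library gave a scale for these levels within 1 library. T cells had 1216 CPM of B2m and 1178 CPM of H2-K1, B cells 902 and 729 CPM, fibroblasts 469 and 285 CPM, and endothelium 1004 and 840 CPM. T cells thus lay above the endothelium of their own library for both genes but below sunitinib and vehicle endothelium, while B cells and fibroblasts lay below all 3 endothelial sums. H2-D1 had another order, with 862 CPM in T cells, 727 CPM in B cells and 409 CPM in fibroblasts against 1130 CPM in endothelium. Psmb8 reached 345 CPM in T cells and 316 CPM in B cells, next to 320 CPM in vehicle endothelium, and these 3 intervals overlapped. Psmb9 was alike at 126 CPM in T cells and 125 CPM in B cells. In fibroblasts 9 of the 10 genes were at least 1.5-fold lower than in endothelium (28.0% of all genes were, and 24.6% were that much higher), Tapbp being the exception at 0.85-fold (0.73 to 0.98). Fibroblasts still stood above smooth muscle for all 9 genes with 20 UMIs, from 2.09-fold for B2m to 14.7-fold for Psmb8 (6.18 to 45.8), and 31.0% of all genes passed 1.5-fold in that direction.

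Nlrc5 set the lymphocytes apart from the vessel wall. It stood at 136 CPM in T cells and 40.9 CPM in B cells, at 25.3 CPM in sunitinib plus Yoda1 endothelium, 10.1 CPM in sunitinib endothelium and 9.04 CPM in vehicle endothelium, and at 1.26 CPM (3 UMIs) in fibroblasts. Smooth muscle held 2, 15 and 23 UMIs in sunitinib plus Yoda1, sunitinib and vehicle, that is 2.01, 0.24 and 0.33 CPM. T cells were 5.36-fold above endothelium (4.12 to 7.08), and 3.32-fold above B cells (2.87 to 3.85). Of the 10 genes, 2 were at least 1.5-fold higher in T cells than in B cells, Nlrc5 and H2-K1, where 17.1% of all genes were, and 0 were that much lower, where 24.8% were. Against endothelium, 3 were higher in T cells by that size (Nlrc5, Psmb8 and Tap1, with 21.0% of all genes) and 2 lower (Tap2 and Tapbp, with 40.2%). In B cells 1 was higher than in endothelium (Nlrc5, with 25.0% of all genes) and 3 were lower (H2-D1, Tap2 and Tapbp, with 35.4%). The transporter gene that B and T cells held less of was thus Tap2, at 51.9 CPM in B cells and 62.7 CPM in T cells against 109 CPM in endothelium. Nlrc5 also followed the rest least, with a Pearson r of 0.78 between its log2(CPM + 1) and the mean of the other 9 over the 9 sums of class and library, against 0.86 to 0.99 for the others.

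The order of the sums was not the same for every gene. For B2m it ran from vehicle endothelium through sunitinib endothelium, T cells, sunitinib plus Yoda1 endothelium, B cells and fibroblasts to smooth muscle, where the vehicle and sunitinib intervals overlapped and all other neighbours were apart. For Tap1 it ran from T cells (65.6 CPM) to vehicle endothelium (63.9 CPM), B cells (61.4 CPM), sunitinib endothelium and sunitinib plus Yoda1 endothelium, and each of these neighbours overlapped with the next. The 5 genes whose profile over the 9 sums was most like the mean of the 10 were Arl6ip1 (r = 0.99), Srgn (0.99), H2-Q7 (0.99), AW112010 (0.98) and Parp9 (0.98), out of 11759 genes compared. Among the pathway genes, Psme1 (0.97) and Psmb10 (0.97) were close to the mean, Irf1 less so (0.78), and Psmb5 (-0.85) and Psmb6 (-0.86) were opposed to it. These correlations are descriptions over sums that share libraries and depth.

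Cell by cell, each cell being thinned to 2000 UMIs, B2m, H2-K1 and H2-D1 together gave a median of 5 UMIs in 314 sunitinib plus Yoda1 endothelial cells, 12 UMIs in 165 sunitinib endothelial cells and 17 UMIs in 139 vehicle endothelial cells. The interquartile range was 3 to 8 UMIs in sunitinib plus Yoda1, 8 to 16 in sunitinib, and 12 to 21 in vehicle. Each quartile thus differed between the libraries in the same order as the median, and the lowest vehicle cell (4 UMIs) lay above the lower quartile of sunitinib plus Yoda1 (3 UMIs). Smooth muscle cells had a median of 1 UMI in each library, and 35.5%, 34.2% and 35.0% of them had none in sunitinib plus Yoda1, sunitinib and vehicle. Medians in the other classes were 6 UMIs in T cells, 4 in B cells and 2 in fibroblasts. Within vehicle endothelium the thinned UMIs of B2m and H2-K1 went together across cells with r = 0.42, and those of H2-K1 and H2-D1 with r = 0.31. In vehicle smooth muscle these values were -0.0021 and 0.037, at about 1 UMI a cell. For comparison, 961 barcodes of the sunitinib plus Yoda1 library with at least 50% haemoglobin held 258 CPM of B2m and 131 CPM of H2-K1 among their other UMIs. Whether these were stray RNA or the red cells' own was not tested.

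**Figure D3:**
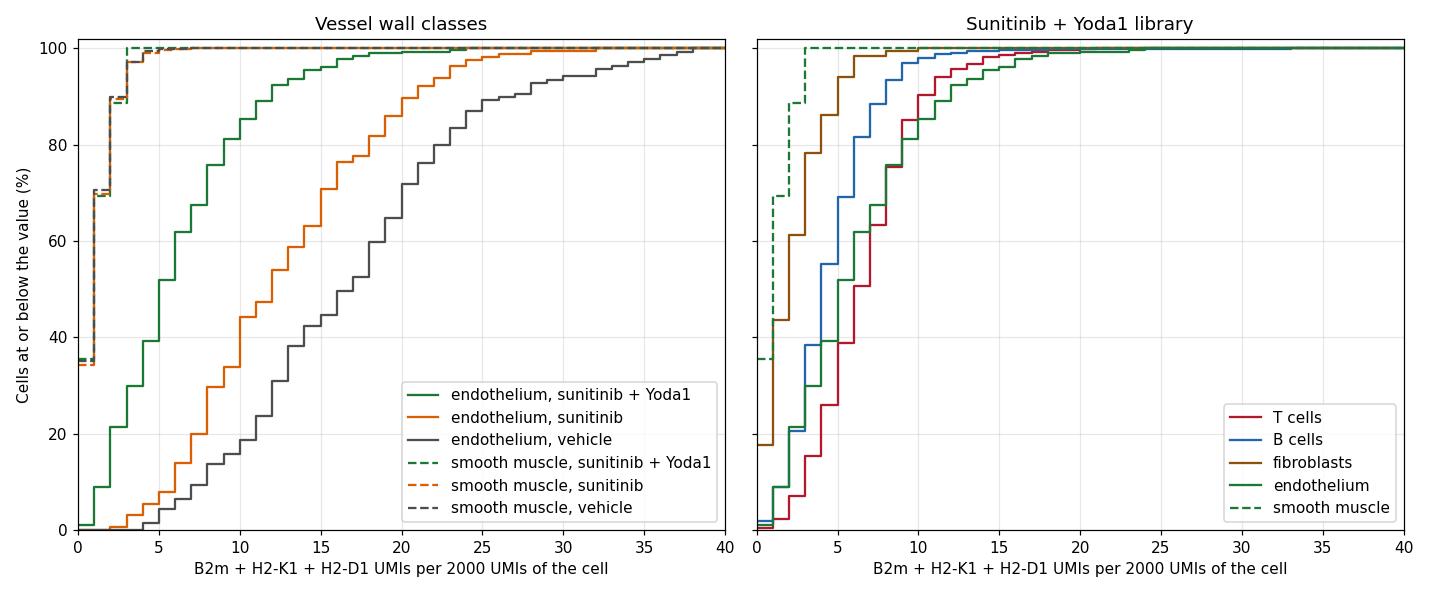
Cumulative share of cells (%) against the summed UMIs of B2m, H2-K1 and H2-D1 in each cell thinned to 2000 UMIs, for the vessel wall classes of the 3 libraries (left) and all 5 classes of the sunitinib plus Yoda1 library (right). The endothelial curves cross 50% near 5, 12 and 17 UMIs in sunitinib plus Yoda1, sunitinib and vehicle, while the 3 smooth muscle curves lie together.

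The comparison of sunitinib with vehicle asks how the set stood in the vessel wall after the kinase inhibitor. In endothelium 9 of the 10 genes were lower in sunitinib than in vehicle, and for 8 of these the interval lay below 0. The median log2 ratio of the 10 was -0.38, beside 0.11 over all 9226 genes measured. At least 1.5-fold lower were 2 genes, B2m and H2-T23, where 6.58% of all genes were, and 0 were at least 1.5-fold higher, where 12.2% were. All 9 lower genes stayed below 0 under each of 14 other ways of choosing, scaling or counting the cells. Not all of these could have turned a sign. Dropping the minimum of UMIs left each ratio as it was, and TMM or median-of-ratios scaling moved each ratio further down.

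B2m had 1440 CPM in sunitinib endothelium and 2387 CPM in vehicle endothelium, a log2 ratio of -0.73 (-0.80 to -0.66), the lowest of the set. H2-T23 came next, with 148 CPM in sunitinib and 228 CPM in vehicle (-0.62, -0.85 to -0.40). The other 7 lower genes lay close together, between -0.45 for H2-K1 (-0.51 to -0.39) and -0.29 for Tap1, whose interval of -0.70 to 0.12 included 0. H2-D1 stood at -0.33 (-0.39 to -0.28), Tap2 at -0.38, Tapbp at -0.37, Psmb8 at -0.37 (-0.55 to -0.18) and Psmb9 at -0.39 (-0.66 to -0.13). The light chain was thus lower by more than either classical heavy chain, and the intervals do not overlap. Nlrc5, the transactivator, had 19 UMIs in sunitinib and 15 in vehicle endothelium, with a log2 ratio of 0.17 whose interval of -0.89 to 1.25 spans any of the other values.

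Some genes around the set were lower too, and others were not. Irf1, an interferon-induced activator of class I genes, had 67.2 CPM in sunitinib and 123 CPM in vehicle endothelium (-0.88, -1.21 to -0.55). Of 14 interferon-induced genes 13 were measured, all 13 were below 0, and 8 were at least 1.5-fold lower, with a median of -0.71. Cxcl10, a chemokine for activated T cells, was the lowest of them at 3.20 CPM in sunitinib and 39.8 CPM in vehicle (-3.63), and the guanylate-binding protein gene Gbp2 was at 105 and 238 CPM (-1.18). Of the other class I heavy chains, H2-Q6 was at 130 CPM in sunitinib and 246 CPM in vehicle (-0.92) and H2-Q7 at 370 and 572 CPM (-0.63), and Psmb10 was at -0.56 (-0.82 to -0.29). Above 0 were 1 of 5 other heavy chains, 2 of 3 class I-like partners of B2m and 2 of 6 loading and trimming genes. Psme2 was at 140 CPM in sunitinib and 127 CPM in vehicle, Erap1 at 83.7 and 66.9 CPM, and Calr at 567 and 516 CPM. The 14 core proteasome genes behaved otherwise, with 13 above 0 and a median of 0.20. Of 14 regulators of the class I and class II genes, 3 were at least 1.5-fold lower and 2 at least 1.5-fold higher, with a median of 0.08. Ifng and Ifnb1 had 0 UMIs in the endothelium and smooth muscle of both libraries, where 3 counts would have been 1.60 CPM in sunitinib and 1.81 CPM in vehicle endothelium.

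Part of the endothelium carried MHC class II transcripts, and that share differed between libraries. All 5 class II genes were at least 1.5-fold lower in sunitinib than in vehicle endothelium, led by the class II transactivator Ciita (-2.29) and the invariant chain Cd74 (331 CPM in sunitinib and 1251 CPM in vehicle, -1.92). Cells with 2 or more Cd74 UMIs made up 16 of 366 endothelial cells in sunitinib plus Yoda1 (4.37%), 47 of 184 in sunitinib (25.5%) and 89 of 151 in vehicle (58.9%). The cells were not matched for depth. Those with 2 or more Cd74 UMIs had a median of 12088.5 UMIs in sunitinib plus Yoda1, 18144 in sunitinib and 10903 in vehicle, against 4445.5, 6259 and 5828 UMIs in the remaining cells. A cut at 2 UMIs favours deeper cells, so these shares are not free of depth. Within vehicle endothelium, Cd74-bearing cells were higher than the rest in B2m (log2 ratio 0.40, 0.29 to 0.52), H2-K1 (0.50), H2-D1 (0.35), Psmb8 (0.44) and Psmb9 (0.59), and about level in Tapbp (0.01, -0.31 to 0.35). Sunitinib over vehicle was still below 0 for all 9 genes on either side of the split. B2m was at -0.57 among cells with 2 or more Cd74 UMIs and at -0.66 among those with fewer, H2-K1 at -0.34 and -0.26, and H2-D1 at -0.29 and -0.16. Among cells with fewer than 2 Cd74 UMIs the values of Tap2 (-0.04) and Psmb9 (-0.11) were nearer to 0 than over all cells, and that of Tap1 was -0.17. The number of genes at least 1.5-fold lower was 0 among cells with 2 or more Cd74 UMIs and 1, B2m, among cells with fewer. The share of all genes past that size in these subsets is not given here, so the counts cannot be read alone. Macrophage markers in endothelium were at 36.3 CPM in sunitinib and 18.1 CPM in vehicle with Csf1r at 0 in both, and lymphocyte markers at 0 and 8.43 CPM with Cd79b and Ms4a1 at 0 in both.

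**Figure D4:**
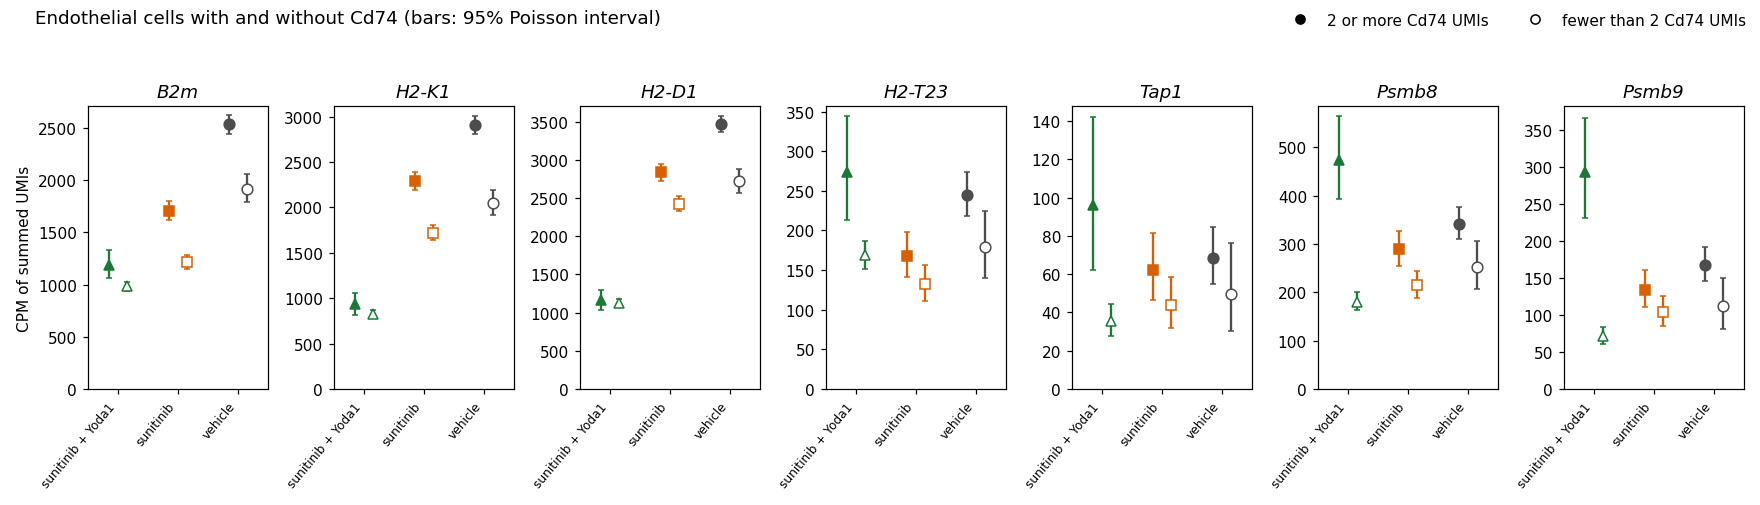
CPM of 7 of the genes in endothelial cells with 2 or more Cd74 UMIs (filled) and with fewer (open), by library, with 95% Poisson intervals. Filled points lie above open points in every library and panel, and for B2m, H2-K1 and H2-D1 both kinds stand lower in sunitinib than in vehicle and lowest in sunitinib plus Yoda1. Among genes not drawn, Nlrc5 was lower in Cd74-bearing cells than in the rest in vehicle (7.96 and 12.4 CPM) and sunitinib plus Yoda1 (19.3 and 26.1 CPM). These Nlrc5 values rest on 10 and 5 UMIs in the Cd74-bearing cells. Tapbp was lower in those of sunitinib plus Yoda1 (158 and 167 CPM).

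In smooth muscle the same comparison gave small values of both signs. Of the 10 genes 7 were above 0 and 3 below, with a median of 0.12 beside 0.09 over all 13885 genes measured. B2m had 281 CPM in sunitinib and 283 CPM in vehicle smooth muscle (-0.01, -0.04 to 0.02), so with 17545 and 19514 UMIs the light chain was level to within counting error. H2-D1 was at 181 and 161 CPM (0.17, 0.13 to 0.21), H2-T23 at 6.12 and 5.05 CPM (0.28, 0.06 to 0.49) and Tap2 at 15.3 and 12.3 CPM (0.31, 0.18 to 0.45). Psmb8 was the 1 gene at least 1.5-fold lower (47 and 79 UMIs, -0.61, -1.16 to -0.07), where 4.75% of all genes were, and 0 were at least 1.5-fold higher, where 7.27% were. The level of Psmb8 in vehicle smooth muscle did not exceed the free RNA estimate, which may be too high, as given above. The log2 ratio of Psmb8 turned to 0.15 with cells thinned to 2000 UMIs. Only 8 of 3617 thinned sunitinib cells and 8 of 3574 thinned vehicle cells then held a UMI of it. Irf1 was far lower here as well, at 18.0 CPM in sunitinib and 60.5 CPM in vehicle smooth muscle (-1.75, -1.84 to -1.65), as were Socs1, a feedback inhibitor of interferon signalling (-0.93), and Cxcl10 (-1.77). The interferon-induced list was split, with 6 of 12 below 0 and 6 above, 4 at least 1.5-fold lower and 0 higher, and a median of -0.12, and the regulators were split with 7 of 14 on either side. Scaling by TMM or median-of-ratios factors shifted all values of this comparison by -0.08 or -0.10, which put B2m at -0.09 or -0.11, H2-K1 at -0.01 or -0.03 and Tapbp below 0, and left H2-D1, H2-T23 and Tap2 above 0. Smooth muscle therefore had lower Irf1 beside near-level B2m and H2-K1, while in endothelium all 3 were lower.

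**Figure D5:**
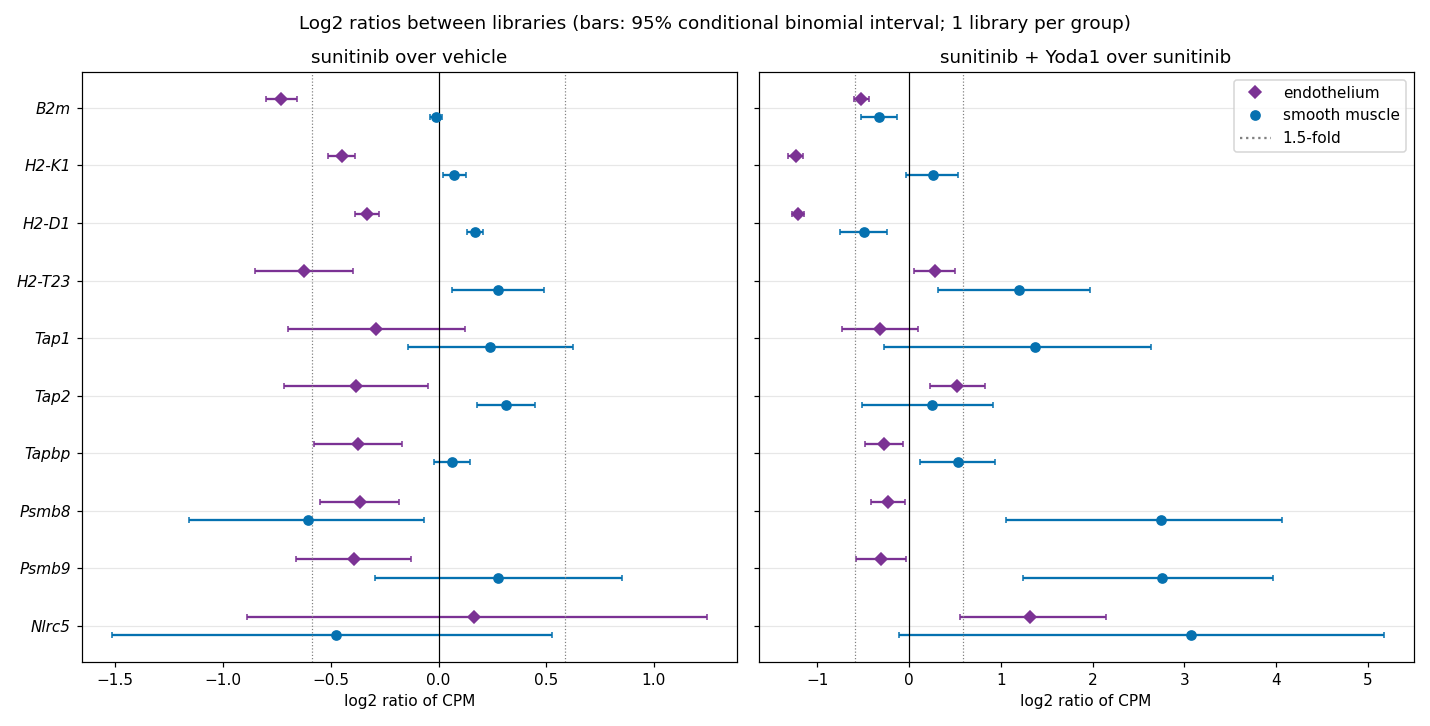
Log2 ratios of CPM for sunitinib over vehicle (left) and sunitinib plus Yoda1 over sunitinib (right), with diamonds for endothelium, circles for smooth muscle, bars for 95% conditional binomial intervals and dotted lines at 1.5-fold. On the left the endothelial points lie below 0 apart from Nlrc5, while smooth muscle stays near 0 where counts are high; on the right H2-K1 and H2-D1 in endothelium stand at -1.24 and -1.21, and Nlrc5 in smooth muscle rests on 17 UMIs in all.

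The comparison of sunitinib plus Yoda1 with sunitinib addresses the PIEZO1 agonist on top of the kinase inhibitor, and it shares the sunitinib library with the comparison above. In endothelium both classical heavy chains were lower. H2-K1 had 840 CPM in sunitinib plus Yoda1 and 1978 CPM in sunitinib (-1.24, -1.31 to -1.16), and H2-D1 had 1130 and 2613 CPM (-1.21, -1.28 to -1.14). B2m was at 1004 and 1440 CPM (-0.52, -0.60 to -0.44), so both heavy chains were lower by more than the light chain. H2-K1 and H2-D1 were the 2 genes at least 1.5-fold lower, where 20.1% of all genes were, and they remained so under each of 14 alternatives, at -0.98 or lower. Among these, dropping the minimum of UMIs could not change a ratio, and TMM or median-of-ratios scaling could only lower it. H2-T23 (0.28, 0.06 to 0.50) and Tap2 (0.52, 0.22 to 0.83) lay above 0, and Tap1 (-0.32), Tapbp (-0.27), Psmb8 (-0.23) and Psmb9 (-0.31) modestly below. Nlrc5 was the 1 gene at least 1.5-fold higher (61 and 19 UMIs, 1.32, 0.56 to 2.15), where 37.0% of all genes were.

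Intron length and endothelial type moved with this comparison. Among the fifth of genes with the most intron sequence the median log2 ratio in endothelium was 1.29, and Nlrc5, with 84424 intron bases, belongs to it. Among the fifth with the least, which holds B2m, H2-K1, H2-D1, H2-T23, Tap1, Psmb8 and Psmb9, the median was -0.36. H2-K1, H2-D1 and B2m lay below that median, Tap1, Psmb8 and Psmb9 a little above it, and H2-T23 further above. The part of intron length was not tested. With capillary-gene cells left out, 64 sunitinib plus Yoda1 cells and 182 sunitinib cells remained, and H2-K1 was at 881 and 1994 CPM (-1.18), H2-D1 at 1249 and 2637 CPM (-1.08), and B2m at 946 and 1458 CPM (-0.62). The 64 cells held fewer than 2 of the 5 capillary genes, in an endothelium with a median of 4668.5 UMIs a cell. Capillary cells can therefore remain among them, and the part of endothelial type was not tested. Without the capillary-gene cells Psmb8 was level (0.04), Tap1 was at 0.23, Psmb9 at 0.48 and Nlrc5 at 0.65 on 8 UMIs. The signs of Tap1, Psmb8 and Psmb9 thus turned in this subset, which was chosen after seeing the data. They also turned among the 16 and 47 cells with 2 or more Cd74 UMIs, to 0.63, 0.71 and 1.13. Macrophage markers in endothelium stood at 39.9 CPM in sunitinib plus Yoda1 and 36.3 CPM in sunitinib, and lymphocyte markers at 17.9 and 0 CPM. Their part in the result was not tested.

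The class II genes and the chemokine Cxcl9 ran against the heavy chains. In sunitinib plus Yoda1 endothelium 4 of 5 class II genes were at least 1.5-fold higher than in sunitinib, with H2-Ab1 at 229 and 118 CPM (0.95, 0.72 to 1.18). Cd74 was held by few cells, since 16 of the 366 carried 972 of its 997 UMIs. In those 16 cells Psmb8 was at 474 CPM and Psmb9 at 293 CPM, against 181 and 70.8 CPM in the other sunitinib plus Yoda1 endothelial cells, log2 ratios of 1.39 (1.09 to 1.69) and 2.05 (1.63 to 2.45), while H2-D1 was about level (0.04, -0.14 to 0.22). Cxcl9, an interferon-gamma-induced chemokine, had 227 UMIs (94.3 CPM) in sunitinib plus Yoda1 endothelium and 0 in sunitinib and vehicle endothelium. Irf1 was at 101 CPM in sunitinib plus Yoda1 and 67.2 CPM in sunitinib (0.59, 0.28 to 0.92). The interferon-induced list as a whole did not go with these 2 genes: of 13 measured, 5 were at least 1.5-fold lower and 2 at least 1.5-fold higher, with a median of -0.36. Lowest were the interferon-inducible GTPase gene Igtp at 28.3 and 74.7 CPM (-1.40) and Gbp3 at 32.8 and 69.9 CPM (-1.09). The loading chaperones were lower, with 5 of 6 genes past 1.5-fold, Pdia3 among them at 227 and 493 CPM (-1.12), and so was H2-Q7 (-1.39), while Psmb5 was at -0.58. All 14 core proteasome genes lay below 0 as well, 5 of them at least 1.5-fold lower, with a median of -0.56. Of all genes, 20.1% were at least 1.5-fold lower here and 37.0% at least 1.5-fold higher. Of 14 regulators of the class I and class II genes, 8 were at least 1.5-fold higher and 2 at least 1.5-fold lower, with a median of 0.61.

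Smooth muscle of the sunitinib plus Yoda1 library was 65 cells with 992683 UMIs, so that 3 counts are 3.02 CPM. B2m was at 225 CPM in sunitinib plus Yoda1 and 281 CPM in sunitinib (-0.32, -0.52 to -0.13), H2-D1 at 129 and 181 CPM (-0.49, -0.75 to -0.24) and H2-K1 at 106 and 88.4 CPM (0.26, -0.03 to 0.54). H2-K1 and H2-D1 rest on 105 and 128 UMIs here, and H2-K1 turned to -0.08 under TMM or median-of-ratios scaling. At least 1.5-fold higher were 4 of the 9 genes measured, H2-T23, Tap1, Psmb8 and Psmb9, where 33.0% of all genes were, and 0 were at least 1.5-fold lower, where 10.1% were. They rest on 14, 5, 5 and 6 UMIs in sunitinib plus Yoda1. Red cell transcripts in this smooth muscle were at 7064 CPM against 1.38 CPM in sunitinib, and the macrophage list summed to 4.03 CPM with C1qa, Adgre1 and Cd68 at 0, against 2.47 CPM in sunitinib. Scaling by TMM or median-of-ratios factors shifted all values by -0.34 and made B2m and H2-D1 at least 1.5-fold lower. In endothelium the same factors shifted all values of sunitinib plus Yoda1 over sunitinib by -0.16 and -0.20 and those of sunitinib over vehicle by -0.09 and -0.10.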

How the data were processed

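The authors deposited raw UMI counts per gene and barcode as 1 matrix per library. Cell Ranger 6.0.0 (vehicle and sunitinib) or 7.1.0 (sunitinib plus Yoda1) made them, per the file headers, and mm10 and Seurat are named per the submitters' processing notes. Cell Ranger includes intronic reads by default from version 7 on. The sources used here do not say whether this setting was left on. Kept barcodes had 500 or more UMIs, 300 or more genes and no more than 15% mitochondrial UMIs (3130, 4148 and 3947 cells in sunitinib plus Yoda1, sunitinib and vehicle). Smooth muscle needed at least 2% of UMIs from Acta2, Tagln, Myh11 and Cnn1; endothelium 3 or more of Pecam1, Cdh5, Egfl7, Ptprb and Vwf, and cells meeting both rules were left out (0, 22 and 19). Fibroblasts needed 3 or more of Dcn, Lum, Dpt, Pdgfra and Col1a1, B cells Cd79a without Cd3e, T cells Cd3e without Cd79a. No doublet caller was run and no clusters were made.

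UMIs were summed per class and library and given as CPM with exact Poisson intervals. Ratios carry exact conditional binomial intervals (95%), and genes needed 20 UMIs over both sums. A gene was counted as lower or higher past 1.5-fold, which is a description and not a test. Python 3.11.15, scipy 1.17.1 and edgeR 4.0.16 (TMM factors alone) were used, and scripts were tested on simulated counts. Genes, lists, class rules and the rule for named genes were chosen with earlier results of these data known. From each list, at most the 2 highest and 2 lowest genes past 1.5-fold with an interval excluding 0 are named, besides 12 genes to be named whatever their values, 1 of which is not reported here. Ifng, Ifnb1, H2-Ab1 and the Cd74 and Cxcl9 values for sunitinib plus Yoda1 were named after their values were seen. Alternatives changed cell filters, class rules, scaling, depth, free RNA and subsets of cells.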

Additional observations from a re-analysis of the deposited data

Results flagged for a closer look

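Listed here are log2 ratios with opposite signs in endothelium and smooth muscle under the same comparison, where both intervals excluded 0. There were 7 such cases. Further opposite signs, such as those of Tap1 in both comparisons, had an interval that included 0. The difference between the classes was not tested, since each group is 1 library. For sunitinib over vehicle, the values in endothelium and in smooth muscle were -0.45 and 0.07 for H2-K1, -0.33 and 0.17 for H2-D1, -0.62 and 0.28 for H2-T23, and -0.38 and 0.31 for Tap2. H2-D1, H2-T23 and Tap2 kept both signs under every alternative run in either class, and H2-K1 turned below 0 in smooth muscle under 3 of 12. Some of these alternatives could not change a ratio, as given below. For sunitinib plus Yoda1 over sunitinib, the values were -0.27 and 0.54 for Tapbp, -0.23 and 2.74 for Psmb8, and -0.31 and 2.75 for Psmb9. In endothelium Psmb8 lay above 0 in 3 of 14 alternatives and Psmb9 in 2 of 14, and Tapbp in smooth muscle lay below 0 in 1 of 12. The smooth muscle values of Psmb8 and Psmb9 rest on 5 and 6 UMIs in 65 cells.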

How the results depend on the processing

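Of 500 log2 ratios recomputed, 403 moved by less than their counting interval. These include ratios that could not move. Dropping the minimum of UMIs left both sums as they were, and keeping cells meeting both rules in endothelium left smooth muscle as it was. Past 1.5-fold, 1 value changed sign: Psmb8 in smooth muscle, sunitinib over vehicle, to 0.15 with cells thinned to 2000 UMIs. That value rests on 8 thinned cells with a Psmb8 UMI in each of these libraries. Smaller values changed sign too, among them Psmb8, Psmb9 and Tap1 in endothelium, sunitinib plus Yoda1 over sunitinib, which reached 0.71, 1.13 and 0.63. Counts of genes past 1.5-fold moved as follows, and the cause was not tested. The share of all genes past 1.5-fold may also change with the setting and is not given here, so these counts cannot be read alone. For sunitinib over vehicle in smooth muscle, the 1 lower gene became 0 with a mitochondrial limit of 5%, the mean over cells, thinned cells or free RNA taken off, and the 0 higher became 1 with stricter class markers or free RNA taken off. In endothelium, the 2 lower genes became 1 with the 5% limit, with cells meeting both rules kept, with stricter markers or among cells with fewer than 2 Cd74 UMIs, 4 with thinned cells, and 0 among cells with 2 or more; the 0 higher became 1 without cells holding leukocyte or haemoglobin UMIs. For sunitinib plus Yoda1 over sunitinib in smooth muscle, the 0 lower became 2 with stricter markers (5 cells left), TMM or median-of-ratios factors, and 1 without leukocyte or haemoglobin cells or among cells without posterior Hox genes, while the 4 higher became 1 with stricter markers, without leukocyte or haemoglobin cells (6 left) or with thinned cells. In endothelium, the 2 lower became 4 without leukocyte or haemoglobin cells or without capillary-gene cells, a setting chosen after seeing the data, as was leaving out endothelium with leukocyte markers, which moved no count. The 1 higher became 2 in those 2 settings, with cells meeting both rules kept, with stricter markers and among cells with fewer than 2 Cd74 UMIs, 0 with thinned cells and 4 among the 16 cells with 2 or more. No paired analysis was possible because each group is 1 library. Depth limits Nlrc5 in endothelium, smooth muscle and fibroblasts, and Psmb8, Psmb9 and Tap1 in smooth muscle.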

Other observations

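Cells of the sunitinib plus Yoda1 library that met no class rule also carried the set. In 139 of them with 3 or more of the macrophage genes Lyz2, C1qa, C1qb, Csf1r, Adgre1 and Cd68, B2m stood at 1442 CPM, H2-D1 at 1186 CPM, H2-K1 at 661 CPM and Psmb8 at 330 CPM. Set against the T cells, their H2-D1 was higher (862 CPM in T cells) and their H2-K1 lower (1178 CPM in T cells). The other 642 unclassed cells had 1262 CPM of B2m, 394 CPM of Psmb8 and 70.1 CPM of Nlrc5, the last above that of B cells.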
